A study of Saccharomyces cerevisiae with 21 samples.

Results

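Loss of the transcription factor Mga2 was measured in *mga2Δ* yeast against wild-type yeast, both growing exponentially in complete synthetic medium (SDC+All) without a plasmid. These are 6 of the 21 RNA sequencing libraries of the series, chosen by their labels as the 3 *mga2Δ* and the 3 wild-type libraries in this medium. Wild-type was BY4741, a haploid laboratory strain of mating type a, and *mga2Δ* lacks the *MGA2* gene through a deletion made by PCR-based replacement. The labels number the libraries of each strain from 1 to 3 and do not name separate cultures or clones. The spread between libraries of a strain may therefore be technical. P-values rest on this spread, estimated together over all 21 libraries of the series. Values are given beside those of 3 *ino4Δ* libraries, which lack the phospholipid gene activator Ino4 and were grown in the same medium without a plasmid. They are also given beside 3 libraries of *mga2Δ* cells that carry *MGA2*, fused to mCherry and driven by the strong *GPD* promoter, on a *URA3* plasmid (pRS316) in medium without uracil (SDC-URA), so that strain differs from *mga2Δ* in plasmid and medium as well.

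Mga2 and its relative Spt23 are made as dormant proteins anchored in the endoplasmic reticulum (ER) membrane. When membrane lipids are too saturated, the ubiquitin ligase Rsp5 and the proteasome release the soluble part, which enters the nucleus and raises transcription of *OLE1*, the only fatty acid desaturase of this yeast. Unsaturated fatty acids keep membranes fluid, and their shortage is sensed in the ER membrane, where saturated lipids can also trigger the unfolded protein response.

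The deleted gene was read first. *MGA2* (YIR033W, chromosome IX, chrIX:416124-419465, plus strand) had 3107, 2374 and 2944 raw counts in wild-type and 8, 7 and 10 in *mga2Δ*, a log2 fold change of -8.51 ± 0.18 (SE). *SPT23*, which encodes the related factor, had 115, 115 and 107 CPM (TMM-scaled counts relative to library size) in wild-type and 126, 126 and 124 in *mga2Δ*. Its log2 fold change was 0.16 ± 0.06 and did not pass the call used throughout, which required more than 1.5-fold and, in edgeR, an adjusted p (Benjamini-Hochberg, over all tested genes) under 0.05. Of the 9 genes next to *MGA2*, *DAL3* alone was called (0.79 ± 0.15, from 2.56, 2.55 and 2.45 CPM to 3.76, 4.14 and 5.17 CPM), and of the 11 genes of Mga2, Spt23 and their processing *MGA2* alone was.

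The 6 libraries held 14991358 to 17319836 counts, and 6164 of the 7122 genes passed the low-count filter. *URA3*, *LEU2* and *MET17* had 0 or 1 count in each of the 6 libraries (genes deleted in BY4741), and the a-cell genes *STE2* and *MFA2* were present in all 6, with *MF(ALPHA)1* of α cells at 1 to 11 counts. *HIS3*, also among the markers set beforehand as low for BY4741, had 567 to 725 counts in the 6 libraries. *STE3* of α cells, set as absent, had 77 to 111 counts. Library 1 of *mga2Δ* stood apart from libraries 2 and 3, with a chi-square per gene of 52 and 50.3 against 17.1 between 2 and 3. Wild-type library 2 lay nearest to *mga2Δ* in stress genes and in ribosome assembly genes.

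At the 1.5-fold minimum, loss of *MGA2* went with more genes called higher than lower. In *mga2Δ* 587 genes were called higher than wild-type (9.52% of those tested) and 147 lower (2.38%). Of these, 313 rose and 21 fell by more than 2-fold, and 70 rose and 3 fell by more than 4-fold. The 3 libraries of each strain did not overlap for 505 of the 587 and 116 of the 147, and over all tested genes they did not overlap for 20.3% with *mga2Δ* higher and 19.5% with *mga2Δ* lower. The number of lower calls depended on single libraries, at 482 without *mga2Δ* library 1, 343 without wild-type library 2, 95 without wild-type library 3 and 78 without *mga2Δ* library 2, while the number of higher calls stayed between 456 and 710. Higher calls were 80.0% of all calls, against 52.1% with no fold minimum, when 1270 genes were higher and 1169 lower. They were 59.6% without *mga2Δ* library 1, 67.4% without wild-type library 2 and 90.9% with scaling to library totals. That scaling moved the median log2 fold change of all genes from 0.01 to 0.10.

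**Figure D1:**
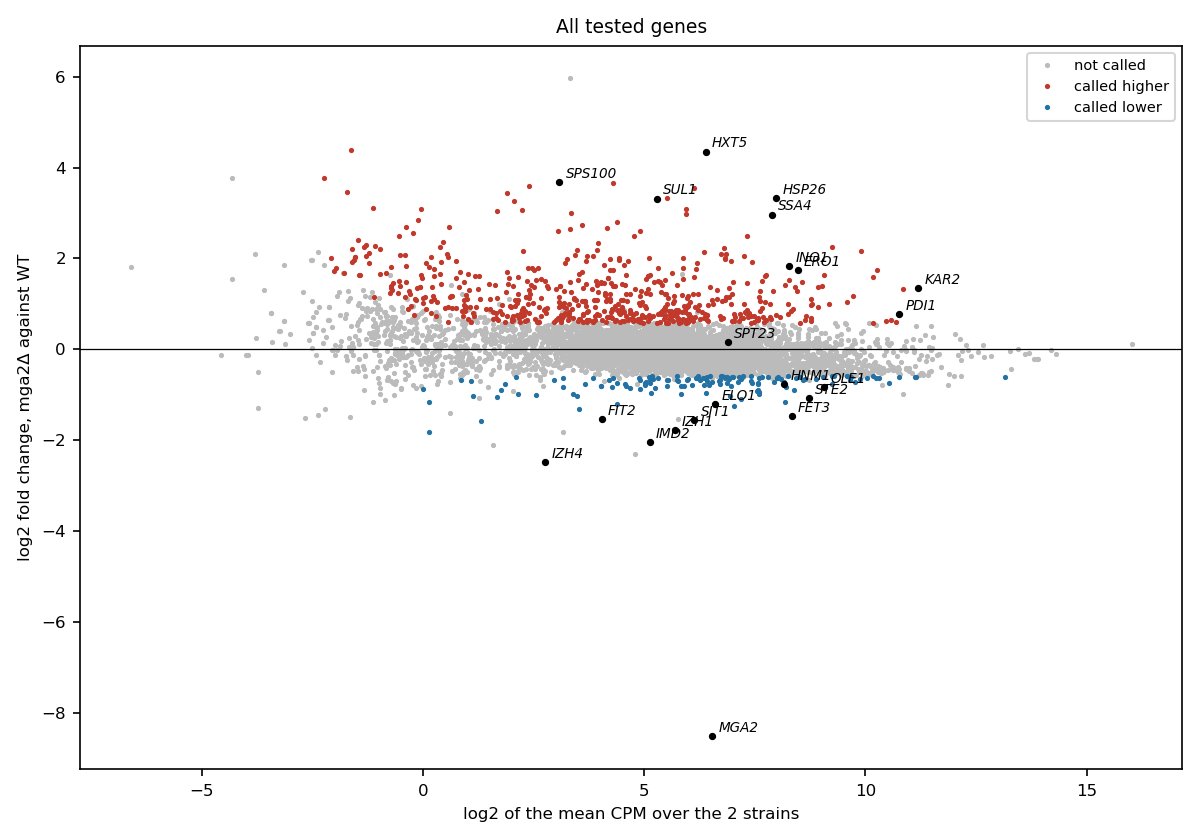
Each point is 1 of the tested genes, with the log2 of its mean CPM over both strains on the x axis and the log2 fold change of *mga2Δ* against wild-type on the y axis, coloured by call and with named genes in black. Red points (587, called higher) reach further from 0 than blue points (147, called lower), apart from *MGA2* itself at -8.51.

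The desaturase gene and the elongases fell. *OLE1* is the classical Mga2 target, and its upstream region holds 1 match to the low oxygen response element ACTCAACAA, through which Mga2 is known to act. The stretch around the match is shown because *OLE1* links the deletion to the lipid genes, with the element in capitals, 5′ to 3′ on the coding strand, in the R64 build.
*OLE1* upstream, chrVII:398248-398328 (plus strand): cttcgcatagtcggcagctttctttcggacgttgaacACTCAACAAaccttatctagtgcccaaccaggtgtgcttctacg
This element was found before the start codon of 22 of 5678 tested protein-coding genes (0.387%) when 500 bases were searched on both strands. *OLE1* (YGL055W) had 671, 523 and 878 CPM in wild-type and 452, 372 and 337 CPM in *mga2Δ*, so every *mga2Δ* library lay below every wild-type library. The level was 1.79-fold lower, or -0.84 ± 0.18 on the log2 scale (adjusted p 0.0016).

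Among the 7 genes of fatty acid desaturation and elongation, 4 were called lower and 0 higher, with a median log2 fold change of -0.64 against 0.01 over all tested genes. *ELO1*, which extends medium-chain fatty acids, had 149, 135 and 122 CPM in wild-type and 58.8, 56.3 and 60.7 CPM in *mga2Δ* and changed by -1.21 ± 0.12 (adjusted p 6.5e-07). Its 6 libraries separated by a wide gap, more so than those of *OLE1*. *ELO2* and *ELO3*, the elongases that make very long-chain fatty acids for sphingolipids, changed by -0.64 ± 0.12 and -0.72 ± 0.11. The *ELO2* call was lost without *mga2Δ* library 2 (-0.53) or library 3 (-0.58) because the change then lay under 1.5-fold. None of the 7 genes of fatty acid synthesis, among them *ACC1*, *FAS1* and *FAS2*, was called, and their median was -0.12, with 1 higher call without wild-type library 3 or *mga2Δ* library 3 and with scaling to library totals.

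The *IZH* genes, which encode membrane proteins of the adiponectin receptor family that respond to zinc and fatty acids, fell furthest among the lipid-linked lists. Of the 4 members 3 were called lower. *IZH4* (YOL101C) had 10.6, 9.20 and 14.8 CPM in wild-type against 2.22, 2.40 and 1.61 CPM in *mga2Δ*, a 5.55-fold lower level (-2.47 ± 0.23 on the log2 scale, adjusted p 3.6e-07). *IZH1* fell from 81.4, 63.6 and 97.2 CPM to 29.0, 20.9 and 21.2 CPM (-1.77 ± 0.16) and *IZH2* from 72.6, 60.2 and 92.9 CPM to 46.2, 42.2 and 41.7 CPM (-0.80 ± 0.14). The libraries of the strains did not overlap for any of these 3 genes. *IZH3* had 78.2, 72.7 and 63.5 CPM in wild-type and 74.96, 66.8 and 66.0 CPM in *mga2Δ*, and its change of -0.05 ± 0.08 was not called. The 500 bases before the *IZH1*, *IZH2* and *IZH4* start codons held no exact match to ACTCAACAA.

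Some iron uptake genes fell in *mga2Δ*. Of 33 genes of the iron regulon, which the activator Aft1 switches on when iron is short, 8 were called lower and 2 higher. Their sites for Aft1 (GCACCC on either strand) were present before 26 of the 33 genes, against 422 of 5678 genes (7.43%). Stretches before *FIT2* and *FET3* show them in capitals.
*FIT2* upstream, chrXV:1059241-1059310 (plus strand): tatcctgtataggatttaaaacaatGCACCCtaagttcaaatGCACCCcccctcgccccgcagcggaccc
*FET3* upstream, chrXIII:388552-388601 (plus strand): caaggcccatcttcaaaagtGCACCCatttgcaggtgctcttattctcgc
*FET3*, the multicopper ferroxidase of high-affinity uptake, had 453, 354 and 610.4 CPM in wild-type and 203, 154 and 159 CPM in *mga2Δ* (-1.46 ± 0.17, adjusted p 7.8e-06). Its permease partner *FTR1* fell from 186, 154 and 258 CPM to 104, 84.4 and 91.2 CPM (-1.10 ± 0.14). The siderophore transporter gene *SIT1* changed by -1.56 ± 0.23 and the cell wall mannoprotein gene *FIT2* by -1.54 ± 0.29, from 22.8, 16.6 and 34.0 CPM to 8.38, 9.25 and 7.73 CPM. In these 4 genes wild-type library 3 was the highest and wild-type library 2 the lowest of the wild-type libraries, and every *mga2Δ* library lay below all of them. *ENB1* and *ARN1*, which take up siderophores, changed by -0.59 ± 0.15 and -0.60 ± 0.20. *FIT3* (-0.73 ± 0.28) and the reductase gene *FRE5* (-1.15 ± 0.35) were called by a narrow margin, and *FIT3* was not called without any 1 of wild-type libraries 1 and 3 or the *mga2Δ* libraries (adjusted p 0.0528 to 0.276). *FRE5* was not called without wild-type library 3 or *mga2Δ* libraries 1 or 2 (adjusted p 0.0527 to 0.0725). The list had 4 lower calls without wild-type library 3 and 5 with scaling to library totals. The higher calls were *HMX1*, the haem oxygenase (0.81 ± 0.18), and *FIT1* (0.66 ± 0.21), and 1 higher call was made without wild-type library 3, *mga2Δ* library 2 or *mga2Δ* library 3.

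Other lipid genes moved one by one. *INO1*, which makes inositol for phosphatidylinositol, rose and *HNM1*, the choline transporter, fell, although both are activated by Ino2 and Ino4 through the inositol-sensitive element (core searched: CATGTGAA, both strands, 82 of 5678 genes or 1.44%). The stretch before *INO1* is shown because *INO1* is the classical target of this pair and yet rose, with both matches in capitals, the second of which reads TTCACATG because it lies on the opposite strand.
*INO1* upstream, chrX:136094-136193 (minus strand): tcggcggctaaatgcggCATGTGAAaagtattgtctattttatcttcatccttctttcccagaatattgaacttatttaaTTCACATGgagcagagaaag
*INO1* had 144, 118 and 148 CPM in wild-type and 615, 421 and 418 CPM in *mga2Δ*, a 3.54-fold rise (1.82 ± 0.27, adjusted p 6.6e-05), with *mga2Δ* library 1 the highest. *HNM1* had 386, 338 and 361 CPM and 235, 196 and 205 CPM (-0.77 ± 0.08, adjusted p 2.7e-06). These were the only calls among 21 genes of the CDP-diacylglycerol and Kennedy pathways, of which 11 held the element. Without *mga2Δ* library 1 or wild-type library 2 there were 2 higher calls. The phospholipid genes *OPI3* (-0.10 ± 0.09) and *CHO1* (-0.43 ± 0.09) were not called.

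Among 14 acyl-CoA synthetase and acyltransferase genes, *ALE1*, the broad lysophospholipid acyltransferase, fell from 206, 208 and 220.2 CPM to 129, 123.2 and 137 CPM (-0.70 ± 0.06) and *ICT1*, another lysophospholipid acyltransferase, rose from 27.02, 31.8 and 31.8 CPM to 60.4, 63.7 and 57.9 CPM (1.01 ± 0.09). Without *mga2Δ* library 1 or wild-type library 2, 3 genes of this list were called lower. Of 21 storage lipid and lipid droplet genes, *SCS3* (0.97 ± 0.09), whose protein belongs to the fat storage-inducing family of the ER, and *ARE2* (0.62 ± 0.09), which esterifies sterols, were called higher. *ARE2* fell under 1.5-fold without wild-type library 1, *mga2Δ* library 2 or *mga2Δ* library 3 (0.54 to 0.56), and 2 genes of this list were called lower without *mga2Δ* library 1 and 1 without wild-type library 2. Of 26 sphingolipid genes 2 were called higher. Like the 2 of 21 storage lipid genes, this lay near the 9.52% called higher over all tested genes. *ORM2*, a brake on serine palmitoyltransferase, rose by 1.10 ± 0.20 and *SUR1*, a mannosyltransferase subunit for complex sphingolipids, by 1.0 ± 0.27. The paralog *ORM1* went from 43.1, 46.6 and 43.4 CPM to 34.0, 35.5 and 34.0 CPM (-0.36 ± 0.06), which is under the fold minimum. The sphingolipid list had 2 lower calls without *mga2Δ* library 1 or wild-type library 2 and with DESeq2, 1 when only these 6 libraries were fitted, and 1 higher call in that fit or without *mga2Δ* library 2. None of 25 sterol synthesis genes was called in edgeR, with a median of -0.15, and 1 was called lower without *mga2Δ* library 1 or wild-type library 3 and with DESeq2.

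**Figure D2:**
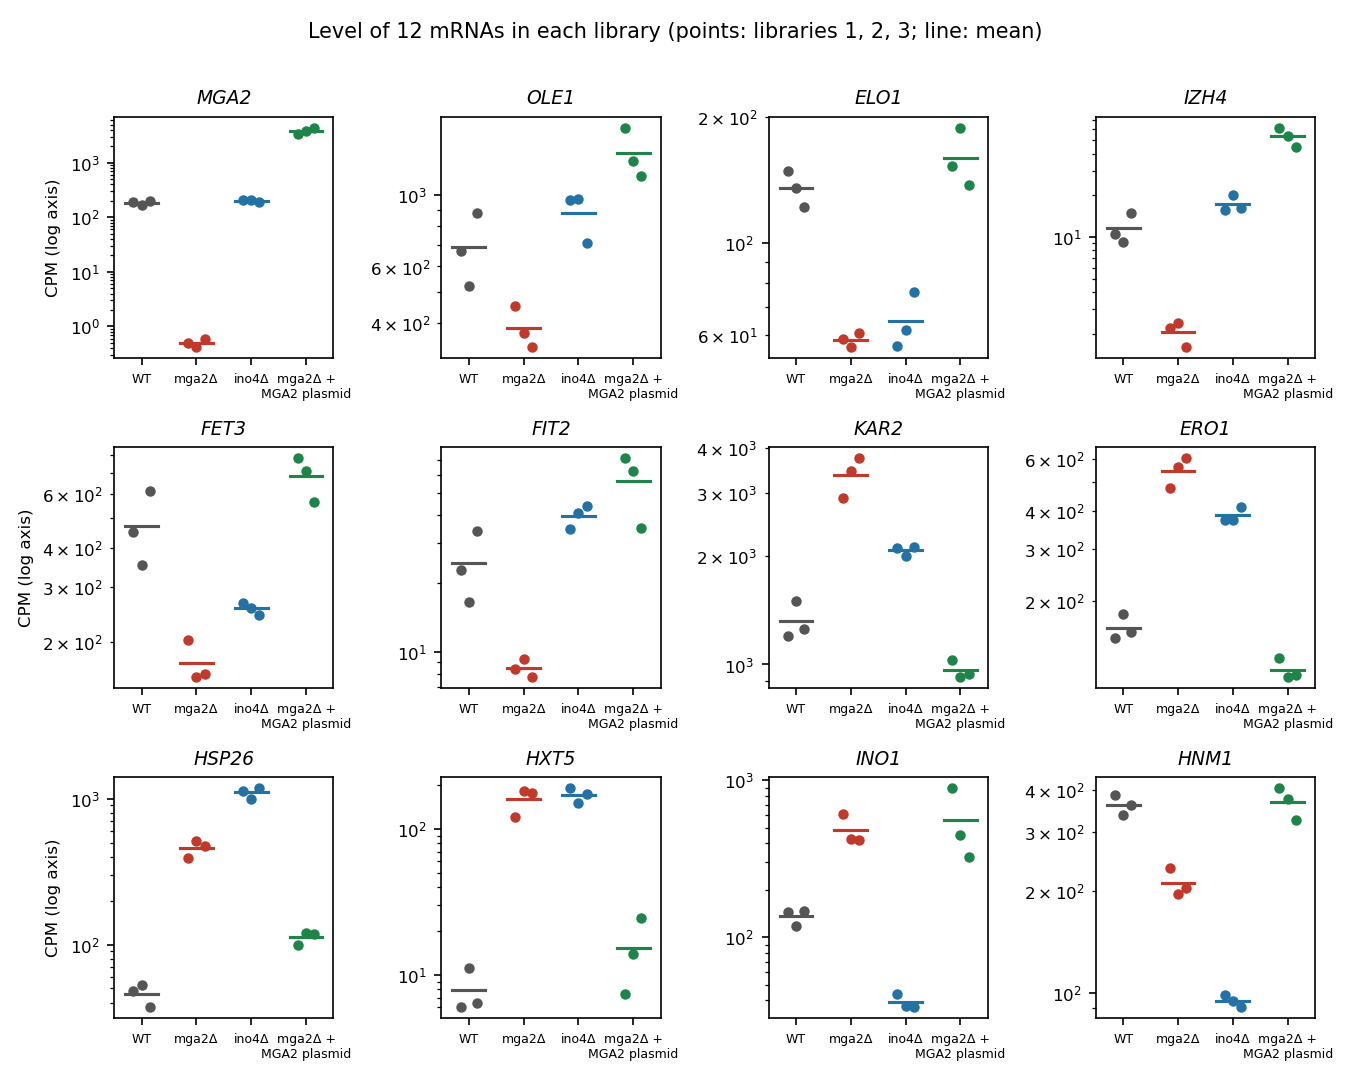
CPM of 12 mRNAs on log axes, with 1 point per library (libraries 1, 2 and 3 from left to right) and a line at the mean of 3 libraries, for wild-type, *mga2Δ*, *ino4Δ* and *mga2Δ* with the *MGA2* plasmid. *OLE1*, *ELO1*, *IZH4*, *FET3* and *FIT2* lay lower in all 3 *mga2Δ* libraries than in all 3 wild-type libraries, and *KAR2*, *ERO1*, *HSP26*, *HXT5* and *INO1* lay higher.

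Chaperones and folding enzymes of the ER rose. Of the 19 genes of this list 9 were called higher and 0 lower, with a median log2 fold change of 0.46, and the same count of 9 was found without any 1 library. *KAR2* and *LHS1* carry an exact match to the unfolded protein response element CAGCGTG, to which the transcription factor Hac1 binds, and both are shown with it in capitals.
*KAR2* upstream, chrX:381127-381213 (plus strand): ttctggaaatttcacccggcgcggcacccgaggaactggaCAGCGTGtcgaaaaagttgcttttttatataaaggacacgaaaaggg
*LHS1* upstream, chrXI:296290-296360 (plus strand): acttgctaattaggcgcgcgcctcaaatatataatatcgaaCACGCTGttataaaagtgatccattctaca
In *LHS1* the element reads CACGCTG because it lies on the opposite strand. These were the only 2 of the 19 with an exact match, against 130 of 5678 genes (2.29%). *KAR2*, the Hsp70 chaperone of the ER lumen and the usual marker of the unfolded protein response, had 1198, 1504 and 1257 CPM in wild-type and 2903, 3457 and 3744 CPM in *mga2Δ* (1.35 ± 0.10, adjusted p 2.0e-08). *ERO1*, the thiol oxidase that drives disulfide formation, rose from 151, 182 and 158 CPM to 478, 561 and 602 CPM, 3.35-fold (1.74 ± 0.10, adjusted p 8.9e-10). Neither gene's libraries overlapped between strains, and the spread within a strain was small beside the difference. *SIL1*, a nucleotide exchange factor of Kar2, rose by 1.22 ± 0.07, and *LHS1*, the other one, by 0.71 ± 0.07. The disulfide isomerase genes *PDI1* and *MPD1* rose by 0.77 ± 0.07 and 0.96 ± 0.10, the J-proteins *SCJ1* and *JEM1* by 0.76 ± 0.12 and 0.66 ± 0.06, and the prolyl isomerase *FPR2* by 0.70 ± 0.10. *HAC1* (0.20 ± 0.07) and its activating nuclease *IRE1* (-0.01 ± 0.07) were not called, and these gene totals do not show whether *HAC1* mRNA was spliced.

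Downstream quality control changed in few genes. Of 18 ER-associated degradation genes *DER1*, a membrane channel component, was called, from 16.3, 22.4 and 20.3 CPM to 30.5, 46.1 and 42.3 CPM (1.01 ± 0.13). Of 33 proteasome genes *RPN4*, their transcriptional activator, was called, at 0.70 ± 0.05, while the Rpn4 site GGTGGCAAA stood before 27 of the 33 (98 of 5678 genes, 1.73%) and the median change was 0.26. There were 3 calls among the degradation genes and 4 among the proteasome genes without *mga2Δ* library 1, 3 and 2 without wild-type library 2, and 3 and 3 with scaling to library totals. Polyubiquitin *UBI4* rose from 168, 243 and 153 CPM to 368, 571 and 526 CPM (1.38 ± 0.17), and the conjugating enzyme genes *UBC5* (0.86 ± 0.11) and *UBC8* (1.06 ± 0.22) and the ligase gene *HUL4* (0.76 ± 0.25) rose too, among 15 genes tested, of which 2 were called lower without *mga2Δ* library 1.

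Many cytosolic heat shock and general stress genes rose. These lists, like the others, were chosen with earlier results of these data known, and 9.52% of all tested genes were called higher. Of 27 general stress genes 25 were called higher and 0 lower, with a median of 1.63, and of 23 cytosolic chaperone genes 15 were called higher and 1 lower, with a median of 0.89. The stress response element CCCCT, bound by Msn2 and Msn4, stood before 24 of the 27 general stress genes (1946 of 5678 genes, 34.3%). *DDR2* and *HSP26* are shown because they hold it in close repeats, in capitals.
*DDR2* upstream, chrXV:231916-232015 (minus strand): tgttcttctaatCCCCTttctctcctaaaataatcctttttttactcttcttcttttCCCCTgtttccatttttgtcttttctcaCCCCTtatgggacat
*HSP26* upstream, chrII:381540-381599 (plus strand): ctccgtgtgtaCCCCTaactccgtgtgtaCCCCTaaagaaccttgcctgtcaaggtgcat
*HSP26*, a small heat shock protein, had 48.4, 53.0 and 37.1 CPM in wild-type and 395, 513 and 475 CPM in *mga2Δ*, a 9.99-fold rise (3.32 ± 0.18, adjusted p 8.9e-10). *DDR2*, a DNA damage and multistress gene, went from 5.82, 13.9 and 5.75 CPM to 35.0, 55.7 and 63.8 CPM (2.61 ± 0.37). Its wild-type library 2 lay above the other wild-type libraries, and *mga2Δ* library 1 lay below the other *mga2Δ* libraries. *HSP12*, a membrane-stabilising protein, rose from 397, 389 and 259 CPM to 1436, 1732 and 1550 CPM (2.17 ± 0.23) and catalase *CTT1* from 38.8, 85.2 and 30.2 CPM to 153, 218 and 221 CPM (1.95 ± 0.35). The Hsp70 gene *SSA4* had 51.5, 73.3 and 36.5 CPM and 216, 518 and 524 CPM (2.97 ± 0.30), the disaggregase gene *HSP104* 398, 885 and 402 CPM and 1170, 2280 and 2235 CPM (1.75 ± 0.29), and the sorting factor gene *BTN2* 23.3, 91.2 and 20.4 CPM and 81.1, 223 and 240.0 CPM (2.02 ± 0.44). *MSN2* (0.15 ± 0.08) and *MSN4* (0.10 ± 0.13), the activators themselves, were the 2 list members not called. The 1 lower chaperone was *SSB1*, which binds nascent chains on ribosomes (-0.60 ± 0.13). It was not called without wild-type library 3, *mga2Δ* library 2 or *mga2Δ* library 3, and its near-identical copy *SSB2* makes its level uncertain.

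The mean log2 CPM of the general stress genes was 4.54, 5.27 and 4.37 in wild-type libraries 1, 2 and 3 and 6.05, 6.57 and 6.52 in the *mga2Δ* libraries, so the strains did not overlap but wild-type library 2 and *mga2Δ* library 1 lay toward each other. The ribosome assembly genes had the reverse order, with means of 6.65, 6.11 and 6.54 in wild-type and 6.41, 5.91 and 5.88 in *mga2Δ*, and there wild-type library 2 lay below *mga2Δ* library 1. Whether this spread among libraries has a part in the stress gene result was not tested. Leaving out 1 library gave 21 to 25 general stress genes called higher, the fewest without wild-type library 3. Bulk RNA cannot tell a higher level per cell from a larger share of cells that express these genes.

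**Figure D3:**
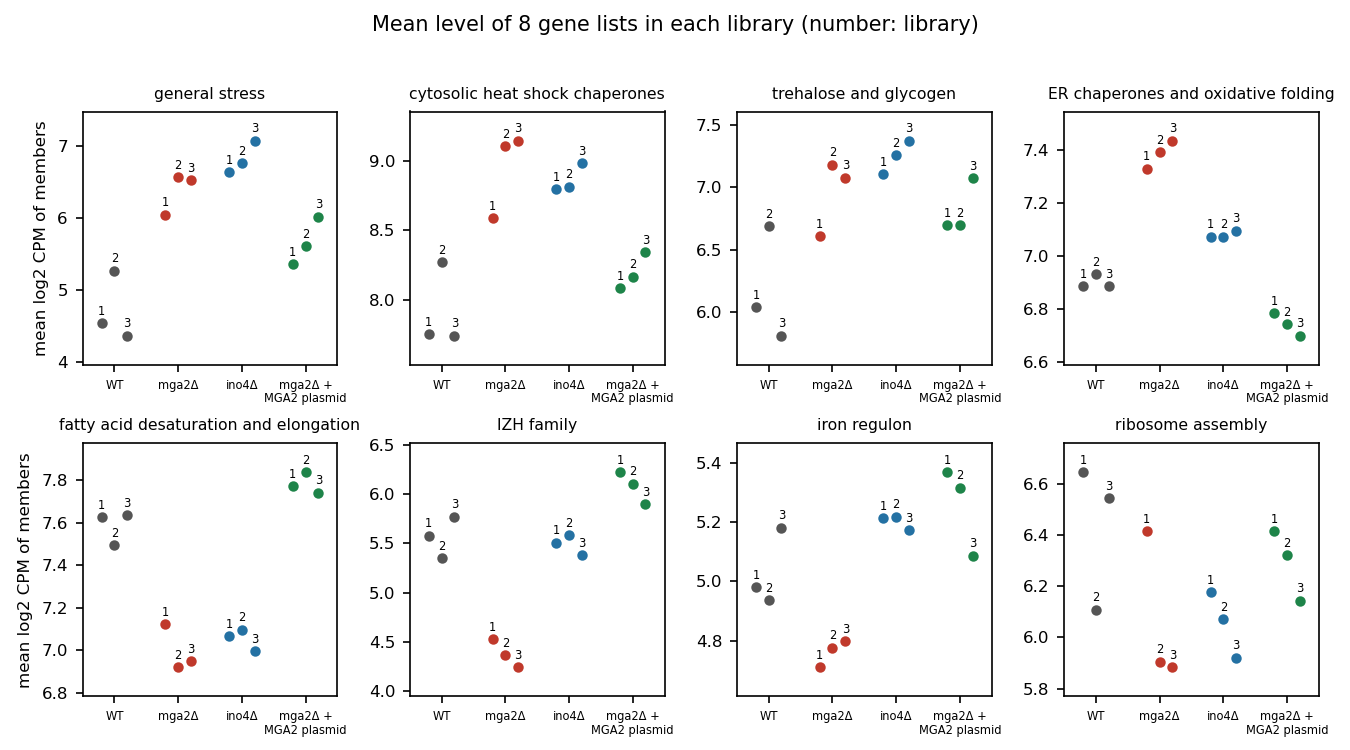
Mean log2 CPM of the members of 8 gene lists in each library, numbered 1 to 3, for wild-type, *mga2Δ*, *ino4Δ* and *mga2Δ* with the *MGA2* plasmid. General stress means run from 4.37 to 5.27 in wild-type and from 6.05 to 6.57 in *mga2Δ*, and ER chaperone means are the highest in *mga2Δ* (7.33 to 7.43).

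Many genes of carbon stores and glucose-repressed genes were called higher, against 9.52% of all tested genes. The mean log2 CPM of the trehalose and glycogen genes was 6.04, 6.69 and 5.81 in wild-type. In *mga2Δ* it was 6.61, 7.18 and 7.08, so wild-type library 2 lay above *mga2Δ* library 1. The glucose-repressed means were 3.65, 4.06 and 3.57 in wild-type and 4.23, 4.80 and 4.58 in *mga2Δ*. Of 21 trehalose and glycogen genes 13 were called higher, among them *PGM2*, which makes glucose 1-phosphate for both stores (1.41 ± 0.28), *TPS1* of trehalose synthesis (0.93 ± 0.20), the trehalase gene *NTH1* (0.71 ± 0.15) and the glycogen debranching enzyme gene *GDB1* (0.87 ± 0.20). This count fell to 8 without wild-type library 1, *mga2Δ* library 2 or *mga2Δ* library 3 and to 6 without wild-type library 3, when *NTH1* (0.57) was among those not called, and was 5 when only these 6 libraries were fitted. Of 27 glucose-repressed genes 14 were called higher and 1 lower, and 9 higher when only these 6 libraries were fitted. *HXT5*, a hexose transporter of slow growth, had the largest rise of all genes named by size, from 6.005, 11.3 and 6.41 CPM to 121, 182 and 178 CPM, 20.4-fold (4.35 ± 0.32, adjusted p 4.8e-08). The transcription factor gene *ADR1* rose by 0.65 ± 0.08, acetyl-CoA synthetase *ACS1* by 1.07 ± 0.16 and the acetate transporter gene *ADY2* by 2.26 ± 0.42. None of 9 glucose-induced transport and sensing genes was called in edgeR, and 1 was called higher with scaling to library totals.

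Markers of cells past exponential growth were checked because the labels state exponential cultures. Of 14 stationary phase genes 7 were called higher (4 when only these 6 libraries were fitted) and 0 lower, against 9.52% of all tested genes called higher. Their summed level was 327 to 488 CPM in wild-type and 545 to 632 CPM in *mga2Δ*. *YRO2*, which had the most counts of the list, was not called (0.55 ± 0.19). The mean log2 CPM of the list was 2.69 to 3.12 in wild-type and 3.73 to 4.09 in *mga2Δ*. *SPS100* rose from 1.06, 1.06 and 1.52 CPM to 18.37, 13.9 and 14.9 CPM (3.68 ± 0.25), *SPG4* from 0.438, 1.06 and 0.397 CPM to 3.33, 9.91 and 7.196 CPM (3.44 ± 0.46) and *SPG5* from 48.5, 50.7 and 50.9 CPM to 78.6, 85.5 and 82.7 CPM (0.72 ± 0.08). *SNZ1* (0.34 ± 0.20) and *SNO1* (0.16 ± 0.39), the vitamin B6 gene pair of cells entering stationary phase, and *SPG3* (0.15 ± 0.12) were not called. None of the defining markers was at 0, and the part that growth stage has in the other results was not tested.

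Cell wall and protective functions also rose in part. *GSC2*, the alternative catalytic subunit of glucan synthase that is made when the cell wall is stressed, had 222, 181 and 232 CPM in wild-type and 1045, 975 and 984 CPM in *mga2Δ* (2.24 ± 0.09), and its adjusted p of 4.7e-12 was the smallest after that of *MGA2*. The 6 called among 23 cell wall genes, all higher, included *NCW2* (2.10 ± 0.18), *PIR3* (1.94 ± 0.18) and the chitin synthase gene *CHS1* (0.84 ± 0.11). Of 11 eisosome and *SUR7*-like genes 3 rose, *FMP45* by 2.81 ± 0.36 and *PUN1* by 1.5 ± 0.20, whereas *SUR7* itself fell by a narrow margin (-0.59 ± 0.06), a call lost without wild-type library 3, *mga2Δ* library 2 or *mga2Δ* library 3 (-0.56, -0.55 and -0.58). Of 25 oxidative stress genes 8 were called higher, with the peroxiredoxins *TSA2* (1.41 ± 0.14) and *PRX1* (1.05 ± 0.11) and the glutaredoxin *GRX1* (0.78 ± 0.09) having small adjusted p. Of 25 autophagy genes 8 were called higher, led by the scaffold gene *ATG17* (1.47 ± 0.14) and *ATG39*, the receptor for the nuclear envelope (1.30 ± 0.21), and 5 without *mga2Δ* library 2. None of 34 nuclear pore and nuclear envelope genes was called.

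Of 20 peroxisomal fatty acid oxidation genes 5 were called higher, with the acyl-CoA oxidase gene *POX1* going from 1.06, 1.70 and 1.52 CPM to 1.79, 3.42 and 2.97 CPM (0.94 ± 0.25) and peroxisomal catalase *CTA1* changing by 0.79 ± 0.18. Only 2 were called without *mga2Δ* library 2, and 3 when only these 6 libraries were fitted. Among 32 nuclear respiratory genes 2 were called higher (1 without wild-type library 3, *mga2Δ* library 2 or *mga2Δ* library 3), and among 21 mitochondrially encoded genes 6, a number that was 1 without wild-type library 3 and 12 with scaling to library totals. Over all tested genes 9.52% were called higher.

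**Figure D4:**
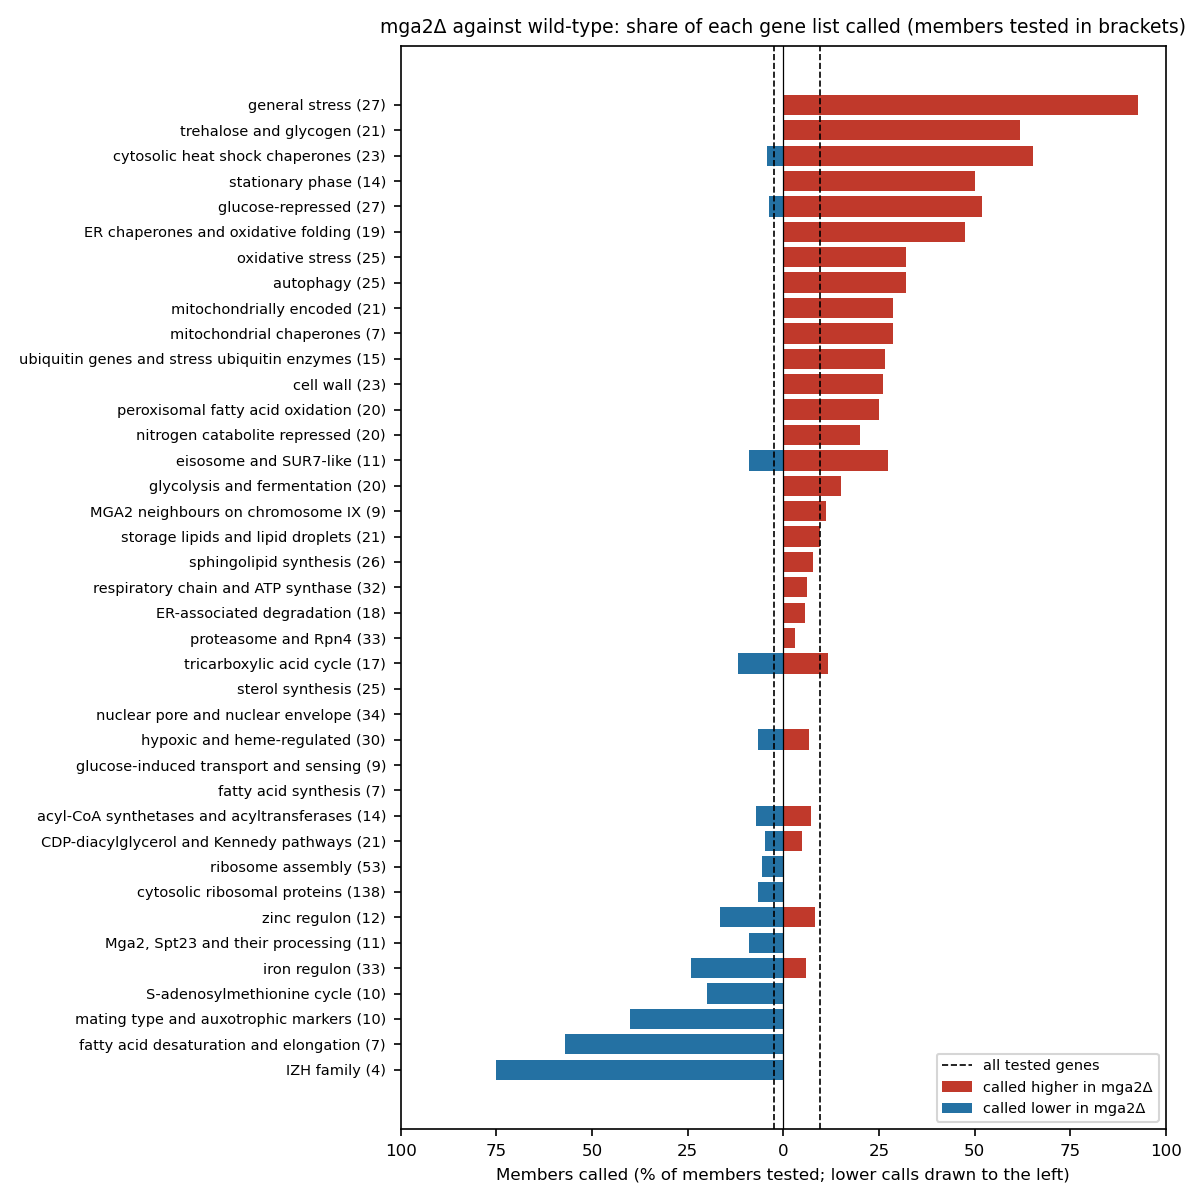
Share of the tested members of each gene list that was called higher (bars to the right) or lower (bars to the left) in *mga2Δ* against wild-type, in percent, with the number of members tested in brackets and dashed lines at 9.52% and 2.38%, the shares over all tested genes. General stress (25 of 27 higher) has the longest bar to the right and the IZH family (3 of 4 lower) the longest to the left. The lists were chosen with earlier results of these data known.

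Some genes of haploid mating fell. Of 10 tested genes of the mating type and auxotrophy list 4 were called lower and 0 higher, with 6 lower without *mga2Δ* library 1 or wild-type library 2. The pheromone receptor gene *STE2* had 656, 493 and 556 CPM in wild-type and 371, 217 and 229 CPM in *mga2Δ* (-1.06 ± 0.16), the pheromone gene *MFA2* 130.3, 105 and 98.5 CPM and 78.2, 56.0 and 59.1 CPM (-0.79 ± 0.11), and the protease gene *BAR1* 284, 216 and 213 CPM and 176, 123.4 and 130.0 CPM (-0.73 ± 0.14). The exporter gene *STE6* (-0.62 ± 0.08) was under 1.5-fold without wild-type library 1 or *mga2Δ* library 2 (-0.56 and -0.58). *FAR1*, the pheromone-induced brake on G1 cyclins, fell from 216, 166 and 166 CPM to 104, 60.8 and 66.8 CPM (-1.24 ± 0.15), and the cyclin gene *CLB6* from 15.95, 10.9 and 22.4 CPM to 10.8, 3.48 and 5.47 CPM (-1.32 ± 0.32), a call lost when only these 6 libraries were fitted. In each of these 6 genes *mga2Δ* library 1 was the highest *mga2Δ* library and lay nearest to wild-type.

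Metabolic lists outside lipids and carbon stores held few calls. Of 12 zinc genes the vacuolar transporter genes *ZRC1* (-0.83 ± 0.10) and *ZRT3* (-0.68 ± 0.23) were called lower and *TSA1* higher, and *ZRT3* was not called without wild-type library 3, *mga2Δ* library 2 or *mga2Δ* library 3 (adjusted p 0.0701 to 0.12). The zinc list had 5 lower calls when only these 6 libraries were fitted and 1 with scaling to library totals, and no higher call without wild-type library 3. In the tricarboxylic acid cycle list *CIT3* (0.85 ± 0.19), a citrate synthase gene, and *SDH4* (0.74 ± 0.15), a succinate dehydrogenase subunit gene, rose. Of 20 glycolysis and fermentation genes 3 were called higher, *TDH1*, *PYK2* and *PDC6* (0.63, 0.68 and 1.15), with 1 without wild-type library 3, *mga2Δ* library 2 or *mga2Δ* library 3. Of 20 nitrogen catabolite repressed genes 4 were called higher, led by the proline oxidase gene *PUT1* (1.36 ± 0.25) and the ammonium permease gene *MEP1* (1.25 ± 0.15). Of 7 mitochondrial chaperone genes *HSP78* (1.64 ± 0.31) and *MDJ1* (0.77 ± 0.16) rose, *MDJ1* not being called when only these 6 libraries were fitted. In the S-adenosylmethionine cycle 2 of 10 genes were called lower, *SAH1* (-0.61 ± 0.10) and *SAM3* (-0.62 ± 0.07), with 4 without *mga2Δ* library 1, 1 without wild-type library 1 or *mga2Δ* library 3, and 0 without *mga2Δ* library 2 or with scaling to library totals.

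Most ribosomal genes were not called, though their medians lay below that of all tested genes. Over all tested genes 2.38% were called lower, with a median log2 fold change of 0.01. Of 138 cytosolic ribosomal protein genes 9 were called lower and 0 higher with a median of -0.47. Of 53 ribosome assembly genes 3 were called lower with a median of -0.42. These counts rested on single libraries: without *mga2Δ* library 1 they were 71 and 30, without wild-type library 2 they were 22 and 27, without wild-type library 1 they were 20 and 0, without wild-type library 3 they were 5 and 0, without *mga2Δ* library 3 they were 3 and 0, and without *mga2Δ* library 2 they were 2 and 0. Scaling to library totals gave 1 and 1, and fitting only these 6 libraries gave 10 and 0. Reads from the many near-identical ribosomal protein gene pairs make single members uncertain.

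Further genes had the largest rises by size. *SUL1*, a sulfate permease, rose from 5.82, 7.78 and 7.74 CPM to 60.4, 73.1 and 78.9 CPM (3.32 ± 0.23, adjusted p 2.6e-08), and *RTA1*, whose overexpression gives resistance to aminocholesterol, from 0.813, 0.920 and 0.661 CPM to 7.15, 11.7 and 10.5 CPM (3.6 ± 0.29). *GRE1*, a hydrophilin, rose from 2.44, 3.96 and 2.38 CPM to 37.8, 35.9 and 36.0 CPM (3.65 ± 0.21) and *NQM1*, a transaldolase, from 9.26, 13.9 and 9.99 CPM to 109, 141 and 138 CPM (3.55 ± 0.24). Both had closely placed *mga2Δ* libraries. *PHM7*, *BAG7*, *CPP3*, *YFL013W-A* and *YPR145C-A* rose by 3.01 to 3.09 on the log2 scale, and *YFL013W-A* reached 3.98 without wild-type library 1. *TMA10* (3.33 ± 0.62) and the Rab GTPase gene *YPT53* (3.26 ± 0.46) were higher in wild-type library 2 than in the other wild-type libraries, and without it their changes were 4.40 and 4.25.

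The largest falls after *MGA2* and *IZH4* included *IMD2*, an IMP dehydrogenase of guanine nucleotide synthesis, from 65.7, 46.3 and 56.7 CPM to 17.3, 11.7 and 12.2 CPM (-2.04 ± 0.16, adjusted p 5.2e-08). Near-identical copies of *IMD2* make its level uncertain. *YHB1*, the flavohaemoglobin that detoxifies nitric oxide, fell from 371, 361 and 466 CPM to 193, 175 and 165 CPM (-1.17 ± 0.21). It belongs to 30 hypoxic and haem-regulated genes, of which 2 were called lower (*YHB1* and *ANB1*) and 2 higher, *CYC7* (1.59 ± 0.46) and *DAN4* (1.41 ± 0.23), with 1 higher without wild-type library 3, *mga2Δ* library 2 or *mga2Δ* library 3. Over all tested genes 2.38% were called lower and 9.52% higher. The arginine gene *ARG3* changed by -1.20 ± 0.30 and rested on wild-type library 3 (-0.75 and adjusted p 0.0532 without it), as did the unannotated *YLL044W* (-1.57 ± 0.43, then -0.77 and adjusted p 0.126, and adjusted p 0.0505 without *mga2Δ* library 2).

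The direct comparison with *ino4Δ* shows where *mga2Δ* differed from another deletion of a lipid gene activator in the same medium. In *mga2Δ* 140 genes were called higher than *ino4Δ* (2.27%) and 595 lower (9.65%), so here lower calls were the more frequent. This comparison shares the *mga2Δ* libraries with the one against wild-type, and the values of both are given side by side. *OLE1* had 967, 970.2 and 708 CPM in *ino4Δ*, and *mga2Δ* was lower by a log2 difference of -1.19 ± 0.18 (adjusted p 5.8e-05). *IZH4* had 15.6, 20.02 and 16.1 CPM in *ino4Δ* and differed by -3.05 ± 0.22, and *IZH1* had 55.3, 57.2 and 46.3 CPM and differed by -1.16 ± 0.16. *FIT2*, at 34.6, 40.6 and 43.7 CPM in *ino4Δ*, differed by -2.23 ± 0.28, and 11 of the 33 iron genes were lower in *mga2Δ* than in *ino4Δ*. The 11 include *FIT1* and *HMX1*, which were called higher than wild-type. *ELO1* (56.4, 61.9 and 76.3 CPM, -0.15 ± 0.12), *ELO2* (0.46 ± 0.12), *ELO3* (-0.13 ± 0.11) and *ALE1* (0.06 ± 0.06) were not called between the deletions.

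Mating genes *FUS1* and *ASG7* were also lower in *mga2Δ* against both strains. *FUS1*, needed for cell fusion, had 21.5, 12.6 and 13.95 CPM in wild-type, 10.97, 9.13 and 8.39 CPM in *mga2Δ* and 28.0, 30.1 and 27.9 CPM in *ino4Δ*, with log2 differences of -0.76 ± 0.20 and -1.59 ± 0.19. The first of these was lost without wild-type library 1 (-0.50, adjusted p 0.0509). *ASG7* differed by -0.82 ± 0.16 and -1.53 ± 0.16, and the hypoxic translation factor gene *ANB1* by -0.63 ± 0.15 and -1.64 ± 0.15, the first under 1.5-fold without wild-type library 1 (-0.56). Its near-identical paralog *HYP2* makes *ANB1* uncertain.

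Higher in *mga2Δ* than in both strains were *INO1* and the ER chaperone genes *KAR2*, *SIL1*, *LHS1* and *MPD1*. *INO1* had 43.8, 36.6 and 35.8 CPM in *ino4Δ*, a difference of 3.64 ± 0.29. Of the 21 CDP-diacylglycerol and Kennedy genes 12 were higher in *mga2Δ* than in *ino4Δ*, against 2.27% of all tested genes. The 12 include *INO4* itself (3.41), whose call was fixed by its deletion in *ino4Δ*. *HNM1* was higher than in *ino4Δ* too (98.2, 94.3 and 90.5 CPM, 1.17 ± 0.09), though lower than in wild-type. *KAR2* had 2109, 2004 and 2118 CPM in *ino4Δ*, so *mga2Δ* lay above it by 0.70 ± 0.10 (adjusted p 1.8e-05), *SIL1* by 0.66 ± 0.07, *LHS1* by 0.66 ± 0.07 and *MPD1* by 0.60 ± 0.10. *ERO1* differed by 0.50 ± 0.09, under the fold minimum. *MET3* of sulfate assimilation (1.16 ± 0.14 against wild-type, 0.81 ± 0.14 against *ino4Δ*), the glycerol synthesis genes *GPD1* (0.99 ± 0.18 and 0.69 ± 0.18) and *GPP2* (0.67 ± 0.12 and 0.68 ± 0.12), and *CPP2* (1.05 ± 0.13 and 0.81 ± 0.12) were higher as well. The reductase genes *GRE2* (0.68 ± 0.13 and 0.69 ± 0.13) and *ARI1* (0.63 ± 0.08 and 0.72 ± 0.08) were close to the minimum, and against wild-type *GRE2* was under it without wild-type library 1 or 2 and *ARI1* without wild-type library 3 or *mga2Δ* library 2 (0.57 to 0.58). The unannotated *YDL023C* (1.22 ± 0.37 and 1.07 ± 0.36) was lost against wild-type without wild-type library 1, wild-type library 3 or *mga2Δ* library 3 (adjusted p 0.0544 to 0.162).

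Most stress genes were not called between the deletions, and those called went in both directions. The mean log2 CPM of the general stress genes in *ino4Δ* was 6.63, 6.76 and 7.07, above all *mga2Δ* and wild-type libraries. Of the 587 genes called higher in *mga2Δ* than in wild-type, 394 were not called against *ino4Δ*. Another 178 were lower in *mga2Δ* than in *ino4Δ* and 15 higher, against 9.65% and 2.27% of all tested genes. Of the 27 general stress genes 1 was higher and 7 were lower in *mga2Δ* than in *ino4Δ*, with *DDR2* at 123.3, 127 and 156 CPM in *ino4Δ* (-1.40 ± 0.32) among the lower, and 4 were lower without *mga2Δ* library 1. Of the 23 cytosolic chaperone genes *HSC82*, *SSA2* and *SSE1* were higher in *mga2Δ* and *HSP26* (1134, 1002 and 1180 CPM in *ino4Δ*, -1.26 ± 0.17) and *SSA3* were lower, with 6 higher without *mga2Δ* library 1 and 1 without *mga2Δ* library 3. *HXT5* had 191, 151 and 175 CPM in *ino4Δ*, a difference of -0.10 ± 0.26 that was not called. Of the glucose-repressed genes 14 of 27 were lower in *mga2Δ*, and of the peroxisomal oxidation genes 11 of 20, with *POX1* at 9.93, 8.64 and 7.97 CPM in *ino4Δ* (-1.69 ± 0.20). *RPN4* was higher in *ino4Δ* (172, 176 and 178 CPM, -0.79 ± 0.05).

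With the *MGA2* plasmid *MGA2* stood at 3355, 3757 and 4349 CPM, above the 194, 168 and 195 CPM of wild-type, so this strain overexpresses the gene. Between it and *mga2Δ* 176 genes were called higher (2.86%) and 371 lower (6.02%), a count that for the higher genes was 364 without *mga2Δ* library 1, and plasmid, medium and *MGA2* cannot be told apart in it. *OLE1* had 1619, 1280 and 1144 CPM, *IZH4* 61.4, 54.0 and 45.0 CPM and *FET3* 779.8, 710.0 and 565 CPM with the plasmid, all above the *mga2Δ* libraries. *KAR2* had 1031, 922 and 938 CPM and *ERO1* 129.7, 112 and 113 CPM, below the wild-type libraries, and 10 of the 19 ER chaperone genes were called lower than in *mga2Δ*. *HSP26* had 99.3, 120.0 and 118 CPM and *HXT5* 7.36, 13.9 and 24.5 CPM, which is below *mga2Δ* and, for *HSP26*, above all wild-type libraries. *INO1* had 891, 449.9 and 326 CPM, overlapping *mga2Δ* (0.20, adjusted p 0.6), while *HNM1* had 405, 375 and 325 CPM.

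Motifs before the start codon were counted over 5678 tested protein-coding genes, of which 535 were called higher and 140 lower. CCCCT on either strand was found before 57.4% of the genes called higher, 21.4% of those called lower and 34.3% of all. GCACCC was found before 11.2%, 15% and 7.43%, and the heat shock element GAANNTTC before 19.3%, 25% and 19.2%, although 12 of the 23 cytosolic chaperone genes held it. CAGCGTG (1.87%, 2.86% and 2.29%), GGTGGCAAA (2.24%, 0.0% and 1.73%) and CATGTGAA (1.12%, 1.43% and 1.44%) were rare in all 3 sets. ACTCAACAA was found before 1 gene called higher and 1 called lower, the latter being *OLE1*. Matches to CCCCT and GCACCC can share their C bases. These matches describe letters in a window, and none of the differences between sets was tested.

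**Figure D5:**
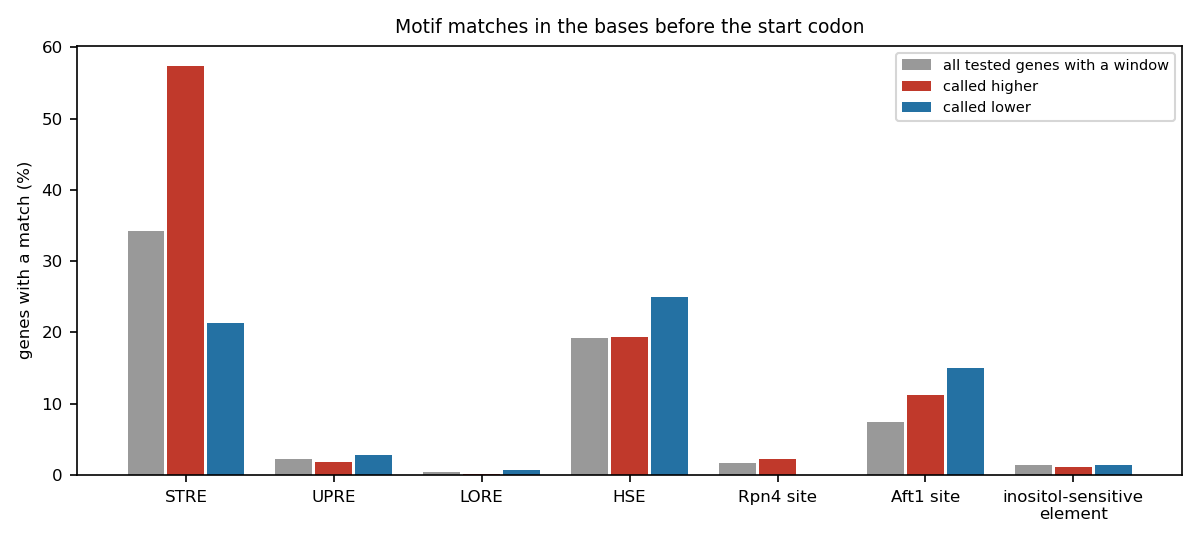
Percent of genes with at least 1 exact match to each motif on either strand in the 500 bases before the start codon, for all 5678 tested protein-coding genes with a window (grey), the 535 called higher in *mga2Δ* (red) and the 140 called lower (blue). The stress response element stands at 57.4% in the higher genes and 21.4% in the lower ones.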

How the data were processed

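Total RNA from exponentially growing cultures was depleted of ribosomal RNA and reverse transcribed with random primers. According to the submitters' processing notes and the study's methods, the authors aligned reads with STAR 2.5.1b to the R64 build, made gene counts with HTSeq 0.5.4p3, and deposited these raw counts. The strand setting of the counting is not given in the sources used here, so overlapping and antisense genes cannot be told apart. Lines without a gene (4 of 7126) were left out.

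The deposited counts were fitted with edgeR 4.0.16 in R 4.3.3 (quasi-likelihood, robust), with TMM scaling, filterByExpr (minimum count 10, minimum total 15) and 1 mean for each of 7 strains over all 21 libraries, which share the estimate of spread. A call required more than 1.5-fold and an adjusted p (Benjamini-Hochberg, 6164 genes) under 0.05. CPM values are TMM-scaled. Named genes were *MGA2*, *SPT23*, *OLE1* and the neighbours of *MGA2*, up to 4 members per list by adjusted p and those whose role is described, the 15 largest changes per direction with no overlap and a mean of at least 10 counts, and the 10 largest per direction called against both strains. The gene lists (39) and members were chosen with earlier results of these data known. Alternatives were limma-voom (limma 3.58.1), DESeq2 1.42.0, other scalings and filters, other thresholds, the replicate number as a block, fits to only the strains compared, and leaving out each library. Upstream sequence came from the RefSeq R64 genome. Scripts were tested on simulated data. A withheld item is not reported here.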

Additional observations from a re-analysis of the deposited data

How the results depend on the processing

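No call count changed direction under the alternatives. With no fold minimum, 1270 genes were higher and 1169 lower than wild-type, 1112 and 1137 against *ino4Δ*, and 891 and 932 for the *MGA2* plasmid strain against *mga2Δ*. Testing against 1.5-fold itself gave 215 and 16, 39 and 246, and 52 and 115. Scaling to library totals gave 74 lower than wild-type and 80 higher than *ino4Δ*, where the median of all genes moved to -0.13. Leaving out 1 library gave 456 to 710 higher and 78 to 482 lower than wild-type, and 145 to 364 higher for the plasmid strain. DESeq2, limma-voom, other size factors, other low-count filters and fits to nuclear genes or to the strains compared stayed within 1.5 times of each count. Of 116 named genes called against wild-type, 88 were called under every alternative but the test against 1.5-fold, and 58 under that one too. With the replicate number as a block, 585 genes were higher and 152 lower than wild-type, and *FIT3* alone of the named genes lost its call. Same-numbered libraries of *mga2Δ* and wild-type had residual correlations of 0.28, 0.45 and -0.20, so the numbers were not taken to pair them. Searching the strand of the gene alone, CCCCT stood before 32.1% of higher, 14.3% of lower and 19% of all genes. Depth limits genes with few counts, and 6164 of the 7122 could be tested. The cause of these differences was not tested.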

Other observations

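Some genes outside the rule for named genes were chosen here after their values were seen. *YLR279W* had 951 counts in *mga2Δ* library 1 against 10 and 5 in the other *mga2Δ* libraries and 4, 4 and 6 in wild-type, and it was not called (adjusted p 0.099 in edgeR). *YDR098C-B*, a transposon gene, had 998, 11 and 1148 counts in wild-type and 37, 404 and 30 in *mga2Δ*. The sporulation genes *SPR2* (0, 0 and 1 counts in wild-type, 6, 4 and 10 in *mga2Δ*) and *SMA1* (1, 0 and 1, then 11, 7 and 10) were called higher on few reads.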
